A study of Mus musculus with 18 samples.

Results

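Splicing factor genes were followed through the 3 sorted cell populations of the mouse intestinal crypt that this array study compared. They were taken by symbol, as all genes of the probe annotation whose symbol starts with Srsf, Sfrs, Hnrnp, Sf3a, Sf3b, U2af, Snrp, Prpf, Rbfox, Mbnl, Celf or Esrp and which have at least 1 probe set of their own. This gave 66 of the 16358 genes measured. They comprise 17 SR protein and related genes, 16 hnRNP genes, 12 PRPF genes, 8 genes of the SF3A and SF3B complexes, 8 snRNP protein genes, 3 MBNL genes and 2 U2AF genes. No symbol of the annotation itself starts with Rbfox, Celf or Esrp. A further 13 genes, among them Esrp1, Esrp2, Rbfox2 and Celf1, carry such a prefix only under their current name and are described apart from the 66.

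Pre-mRNA splicing removes introns in the spliceosome, which assembles on each intron from small nuclear ribonucleoproteins (snRNPs). The U2AF heterodimer binds the 3′ splice site and helps to recruit the U2 snRNP with its SF3A and SF3B complexes, and PRPF proteins act mainly with the U4/U6.U5 tri-snRNP and in the activated spliceosome. SR proteins mostly promote the use of exons, hnRNP proteins often repress it, and MBNL, CELF, RBFOX and ESRP proteins set tissue-dependent exon choice. ESRP proteins are known for the epithelial splicing programme.

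All arrays came from 6 female mice carrying Cyp1a1-H2B-YFP, a histone H2B and YFP fusion driven by the Cyp1a1 promoter, which βNF (beta-naphthoflavone) switches on. The mice were 99 to 109 days old and each gave the 3 populations 10 days after induction. The YFP-LRC array numbered 6 carries another litter label than the other arrays of that number. The labels hold the same digits in another order, and which is right could not be checked. Values within mouse 6 and counts over 6 mice therefore rest on the replicate number there. Every group shares the transgene and the βNF treatment. YFP-LRCs, the label-retaining cells, were sorted as CD24+, UEA- and YFP+. Paneth cells were sorted as CD24+ and UEA+, with UEA the lectin UEA-1. LCCs were CD24+, UEA- and YFP-. Label retention was read 10 days after induction, and each gate can hold several epithelial cell types. From 30000 sorted cells per population, 8 ng of RNA was amplified and hybridised to an exon array, 1 array per population and mouse (n = 6 per population). The values are log2 signals, and a gene's value on an array is the median over its own probe sets. The number of arrays limits the precision.

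The LCC arrays stood apart from the others. An array's median correlation with the other arrays, over all gene values, was 0.916 to 0.950 for YFP-LRC, 0.929 to 0.947 for Paneth and 0.825 to 0.938 for LCC. The residual spread, the SD of probe sets about their population mean, was 0.457 to 0.678 for YFP-LRC, 0.430 to 0.635 for Paneth and 0.690 to 0.864 for LCC. Among the LCC arrays, 1 and 4 correlated best with the rest and 6 least. Results are therefore also given with LCC arrays 1 and 4 alone. Of 7 Paneth cell markers, 4 were called higher in YFP-LRC than in LCC and 6 were called higher in Paneth than in LCC. The list averaged 10.05 to 11.21 on YFP-LRC arrays, 11.25 to 12.04 on Paneth arrays and 9.22 to 10.31 on LCC arrays. None of the T cell, B cell or stromal and endothelial markers measured (5, 3 and 5 genes) was called in any comparison by limma. At an unadjusted p under 0.05 there were 1, 0 and 1 for YFP-LRC against LCC, and 2, 1 and 1 for Paneth against LCC. The red cell gene Hbb-b1 was lower in YFP-LRC (4.56 ± 0.22) than in LCC (6.90 ± 1.88; SD, n = 6 each), while Alas2, the other red cell gene measured, differed by 0.26 ± 0.18 and was not called. Of 4 stem cell markers, 3 were called higher in YFP-LRC than in LCC and 3 in Paneth than in LCC. In Paneth against LCC, 5 of 5 tuft cell markers were called higher and 4 of 6 enteroendocrine markers lower, and in YFP-LRC against LCC 0 of either list were called. Of 6 myeloid markers, 1 was called lower in YFP-LRC than in LCC, 1 higher and 1 lower in Paneth than in LCC, and 1 lower in YFP-LRC than in Paneth. Of 4 goblet cell markers, 1 was called higher in each comparison with LCC. Of 4 enterocyte markers, 1 was called lower in YFP-LRC than in LCC, and 1 higher and 1 lower in Paneth than in LCC. The part of these cells in the results below was not tested.

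The promoters of 59 of the 66 genes are in the RefSeq set for GRCm38.p6, as 81 windows from 250 bases before to 50 bases after a start site. The following 4 are shown because their genes were called higher against LCC, in YFP-LRC and in Paneth alike, and each holds the ETS core motif CCGGAAG, the most frequent of the motifs searched in this gene group. Capitals mark that motif on either strand (CCGGAAG or CTTCCGG), in Srsf11 also the palindromic NRF1 motif, and in Sf3b3 also a TATA box (TATAAA).
Sf3b3, chr8:110846754-110847053, minus strand: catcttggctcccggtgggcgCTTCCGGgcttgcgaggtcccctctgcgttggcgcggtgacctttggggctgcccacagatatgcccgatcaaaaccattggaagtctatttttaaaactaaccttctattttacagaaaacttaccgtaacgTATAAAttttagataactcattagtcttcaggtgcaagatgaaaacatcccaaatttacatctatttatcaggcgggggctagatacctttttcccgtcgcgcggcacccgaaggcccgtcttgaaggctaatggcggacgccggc
Srsf11, chr3:158031699-158031998, minus strand: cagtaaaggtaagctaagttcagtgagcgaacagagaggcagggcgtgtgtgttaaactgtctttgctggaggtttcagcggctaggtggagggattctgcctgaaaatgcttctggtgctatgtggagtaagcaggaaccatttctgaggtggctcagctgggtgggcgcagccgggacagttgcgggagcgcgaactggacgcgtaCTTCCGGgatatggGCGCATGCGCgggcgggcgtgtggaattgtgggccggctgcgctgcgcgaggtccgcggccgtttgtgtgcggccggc
Prpf4b, chr13:34875279-34875578, plus strand: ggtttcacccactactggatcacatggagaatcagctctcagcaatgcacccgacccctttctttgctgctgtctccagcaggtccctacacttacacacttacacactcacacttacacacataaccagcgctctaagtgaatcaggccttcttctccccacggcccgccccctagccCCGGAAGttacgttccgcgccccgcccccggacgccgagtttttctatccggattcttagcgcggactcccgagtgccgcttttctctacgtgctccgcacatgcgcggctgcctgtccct
Sf3a2, chr10:80798485-80798784, plus strand: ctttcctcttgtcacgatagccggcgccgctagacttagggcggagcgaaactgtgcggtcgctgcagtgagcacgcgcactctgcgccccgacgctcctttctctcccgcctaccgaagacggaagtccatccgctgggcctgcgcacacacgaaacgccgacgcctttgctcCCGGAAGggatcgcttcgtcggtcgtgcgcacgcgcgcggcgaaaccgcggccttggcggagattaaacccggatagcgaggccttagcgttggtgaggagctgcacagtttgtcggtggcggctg
The ETS motif was found in 34.6% of the 81 windows and in 8.86% of the 32851 windows of all genes. The E-box CACGTG was found in 16% and 7.15%, the TATA box TATAAA in 9.88% and 13.6%, the NRF1 motif in 1.23% and 0.971%, the YY1 motif in 2.47% and 0.852%, and the ZBTB33 motif in 0% and 0.466%. Both strands were searched, and no 2 different motifs overlapped in the windows of the 66 genes. Median GC content was 60.3% in these windows and 52.7% in all windows. The 21 windows of the 14 called genes with an entry held the ETS motif in 28.6%, a lower share than in the whole group. A match describes letters and not binding, and no test was made of these shares.

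Between YFP-LRC and LCC, 12 of the 66 splicing factor genes passed the test as higher in YFP-LRC and 0 passed as lower, with 31 in either direction at an unadjusted p under 0.05 (limma, adjusted p under 0.05 over all genes). Over all 16358 genes, 6.33% were called higher and 0.917% lower, and 4060 had an unadjusted p under 0.05. That last count was not made for genes of like signal. The 66 genes had a median log2 difference of 0.43, against 0.04 for all genes, 0.23 for genes above the median of signal and 0.35 for those above the upper quartile. Of the 66, 56 lay above 0 (84.8%, against 54.9% of all genes), a share that was not counted for genes of like signal. The called genes belong to the U2AF, SF3, PRPF, SR and hnRNP groups, led by U2af2, Prpf3 and Sf3b3. All 66 genes had a mean signal above the median of all gene means, and the background depended on signal. Among the 8179 genes above that median, 15% were called higher and 0.905% lower, against 12 of 66 splicing factor genes (18.2%). Among the 4090 above the upper quartile, 22.3% were called higher and 0.831% lower, against 11 of the 57 splicing factor genes there (19.3%). The share called was near the background for genes of like signal. In bulk samples, fewer cells of a type and less RNA per cell cannot be told apart.

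**Figure D1:**
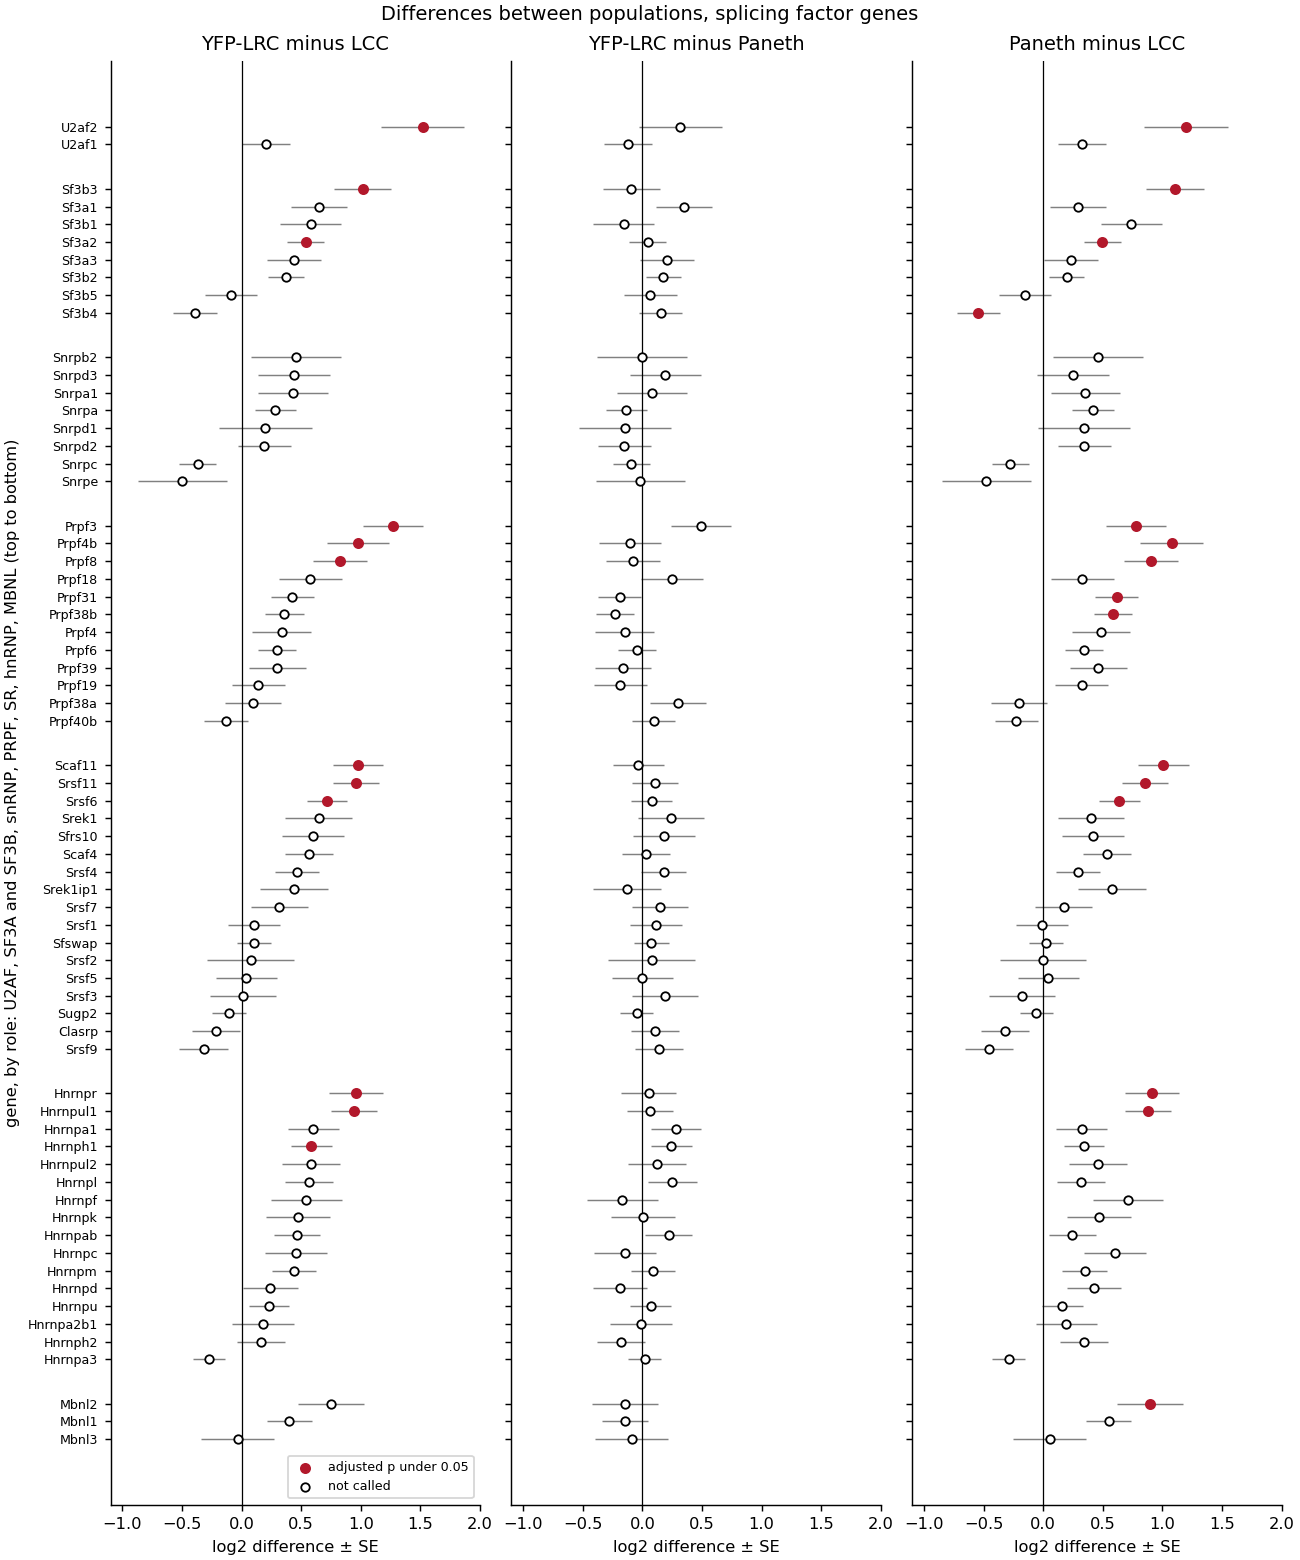
Log2 differences with standard errors for the 66 splicing factor genes, grouped by role from U2AF at the top to MBNL at the bottom, for YFP-LRC minus LCC, YFP-LRC minus Paneth and Paneth minus LCC (n = 6 arrays per population). Filled points are called at an adjusted p under 0.05; 12, 0 and 15 genes are filled in the 3 panels.

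U2AF2, the large U2AF subunit, binds the polypyrimidine tract next to the 3′ splice site. U2af2 had 6.64, 7.69 and 8.13 (lowest, median and highest log2 value) on YFP-LRC arrays, 7.14, 7.23 and 7.50 on Paneth arrays, and 4.85, 6.11 and 7.35 on LCC arrays. The YFP-LRC and LCC ranges overlapped, and LCC arrays 2 and 6 were the lowest of all 18 at 5.05 and 4.85. The difference was 1.52 ± 0.35 (SE) for YFP-LRC minus LCC, higher in 6 of 6 mice (adjusted p = 0.0169), and 1.20 ± 0.35 for Paneth minus LCC (adjusted p = 0.0279). Its value rests on 3 probe sets. U2AF1, the small subunit, reads the AG at the intron end. U2af1 ran from 8.02 to 9.02 on YFP-LRC arrays, 8.33 to 9.14 on Paneth arrays and 7.67 to 8.85 on LCC arrays, which overlap broadly. Its differences of 0.20 ± 0.20 for YFP-LRC minus LCC and 0.32 ± 0.20 for Paneth minus LCC were not called. The difference between the 2 subunits' changes was not tested.

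The SF3A and SF3B complexes are parts of the U2 snRNP that hold the branch point. Of their 8 genes, 2 were called higher in YFP-LRC than in LCC, and 2 were called higher and 1 lower in Paneth than in LCC. Over all genes 6.33% were called higher in YFP-LRC, and 12% higher and 2.53% lower in Paneth, with 15% and 22.9% higher among genes above the median of signal. Sf3b3, a scaffold subunit of SF3B, had 7.71, 8.09 and 8.53 on YFP-LRC arrays, 7.54, 8.31 and 8.44 on Paneth arrays, and 6.60, 6.81 and 8.05 on LCC arrays. LCC arrays 1 and 4, at 7.78 and 8.05, lay within the range of the other populations, and the other 4 LCC arrays lay below it. The difference was 1.01 ± 0.24 for YFP-LRC minus LCC (adjusted p = 0.0190) and 1.11 ± 0.24 for Paneth minus LCC (adjusted p = 0.00558). With LCC arrays 1 and 4 alone these became 0.20 and 0.30, and neither was called. Sf3a2, the SF3A subunit SF3a66, had 8.08, 8.34 and 8.73 on YFP-LRC arrays, 7.94, 8.37 and 8.66 on Paneth arrays, and 7.53, 7.78 and 8.16 on LCC arrays. It was higher by 0.54 ± 0.16 in YFP-LRC than in LCC (adjusted p = 0.0418) and by 0.49 ± 0.16 in Paneth than in LCC (adjusted p = 0.0383), with overlapping ranges in both comparisons.

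Sf3b4, the SF3B subunit SF3b49, went the other way. It had 6.68, 7.01 and 7.35 on YFP-LRC arrays, 6.56, 6.89 and 7.14 on Paneth arrays, and 6.85, 7.53 and 7.84 on LCC arrays. The difference was -0.54 ± 0.18 for Paneth minus LCC (adjusted p = 0.0497), close to the threshold, and -0.39 ± 0.18 for YFP-LRC minus LCC, which was not called. The call ended on leaving out any 1 of 15 of the 18 arrays. Its value rests on 3 probe sets. SF3B1, the largest SF3B subunit, contacts the branch point region directly. Sf3b1 had 9.09, 9.53 and 9.83 on YFP-LRC arrays, 9.38, 9.64 and 9.98 on Paneth arrays, and 7.55, 9.04 and 9.64 on LCC arrays, with LCC array 6 more than 1 log2 unit below the next. Its differences of 0.58 ± 0.26 for YFP-LRC minus LCC and 0.74 ± 0.26 for Paneth minus LCC were not called. Blocking on the mouse brought the second past the threshold (adjusted p = 0.0422). Sf3a1, Sf3a3, Sf3b2 and Sf3b5 were not called, with differences from -0.09 to 0.65 for YFP-LRC minus LCC.

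None of the 8 snRNP protein genes was called in any comparison with limma, with 1 at an unadjusted p under 0.05 for YFP-LRC against LCC and 1 for Paneth against LCC. Of all 16358 genes, 4060 and 4937 had an unadjusted p under 0.05 in these comparisons. The 8 genes encode Sm core proteins (Snrpd1, Snrpd2, Snrpd3, Snrpe), U1 proteins (Snrpa, Snrpc) and U2 proteins (Snrpa1, Snrpb2). Their differences for YFP-LRC minus LCC ran from -0.50 (Snrpe, SE 0.37) to 0.45 (Snrpb2, SE 0.38), with a median SE of 0.30, against 0.22 over the 66 genes. Snrpc, a U1 protein, was below LCC in YFP-LRC in 6 of 6 mice, at -0.37 ± 0.15 (adjusted p = 0.147). Snrpa, another U1 protein, had 8.20, 8.95 and 9.34 on YFP-LRC arrays, 8.71, 8.91 and 9.55 on Paneth arrays, and 8.43, 8.53 and 8.78 on LCC arrays. It was above LCC in Paneth in 6 of 6 mice, by 0.42 ± 0.18 (adjusted p = 0.115), with overlapping ranges.

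PRPF genes took their names from yeast genes for pre-mRNA processing. Of the 12, 3 were called higher in YFP-LRC than in LCC (25%) and 5 were called higher in Paneth than in LCC (41.7%). Over all genes 6.33% and 12% were called higher, with 15% and 22.9% among genes above the median of signal. Between Paneth and LCC, 2.53% of all genes were called lower. Prpf3, a U4/U6 protein, had 8.21, 8.57 and 8.92 on YFP-LRC arrays, 7.60, 8.14 and 8.30 on Paneth arrays, and 6.27, 7.31 and 8.39 on LCC arrays. Apart from LCC array 1, every LCC array lay below every YFP-LRC array. The difference was 1.27 ± 0.25 for YFP-LRC minus LCC (adjusted p = 0.00848), the lowest adjusted p of the 66 genes in that comparison, and 0.78 ± 0.25 for Paneth minus LCC (adjusted p = 0.0446). Prpf3 also had the largest difference of YFP-LRC minus Paneth among the 66, at 0.49 ± 0.25, above 0 in 6 of 6 mice but not called (adjusted p = 0.935).

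Prpf8, the U5 protein at the catalytic centre of the spliceosome, had 8.00, 8.27 and 8.65 on YFP-LRC arrays, 7.90, 8.41 and 8.61 on Paneth arrays, and 6.66, 7.45 and 8.29 on LCC arrays. It was higher by 0.83 ± 0.23 in YFP-LRC than in LCC (adjusted p = 0.0343) and by 0.90 ± 0.23 in Paneth than in LCC (adjusted p = 0.0124), and LCC array 1 lay within the range of both other populations. Prpf4b, a kinase of the tri-snRNP, had 8.98, 9.42 and 9.85 on YFP-LRC arrays, 9.27, 9.61 and 9.74 on Paneth arrays, and 7.67, 8.35 and 9.51 on LCC arrays. It was higher by 0.97 ± 0.26 in YFP-LRC than in LCC (adjusted p = 0.0328) and by 1.08 ± 0.26 in Paneth than in LCC (adjusted p = 0.0107), in 6 of 6 mice in both. Prpf31 and Prpf38b were called for Paneth against LCC, at 0.62 ± 0.18 and 0.59 ± 0.16 (adjusted p = 0.0270 and 0.0195). PRPF31 joins U4/U6 to U5, and Prpf31 had 7.14, 7.25 and 7.69 on YFP-LRC arrays, 7.20, 7.34 and 8.21 on Paneth arrays, and 6.45, 6.85 and 7.39 on LCC arrays. The remaining 7 PRPF genes were called in neither comparison with LCC, with differences of -0.13 to 0.58 for YFP-LRC minus LCC and -0.22 to 0.49 for Paneth minus LCC.

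**Figure D2:**
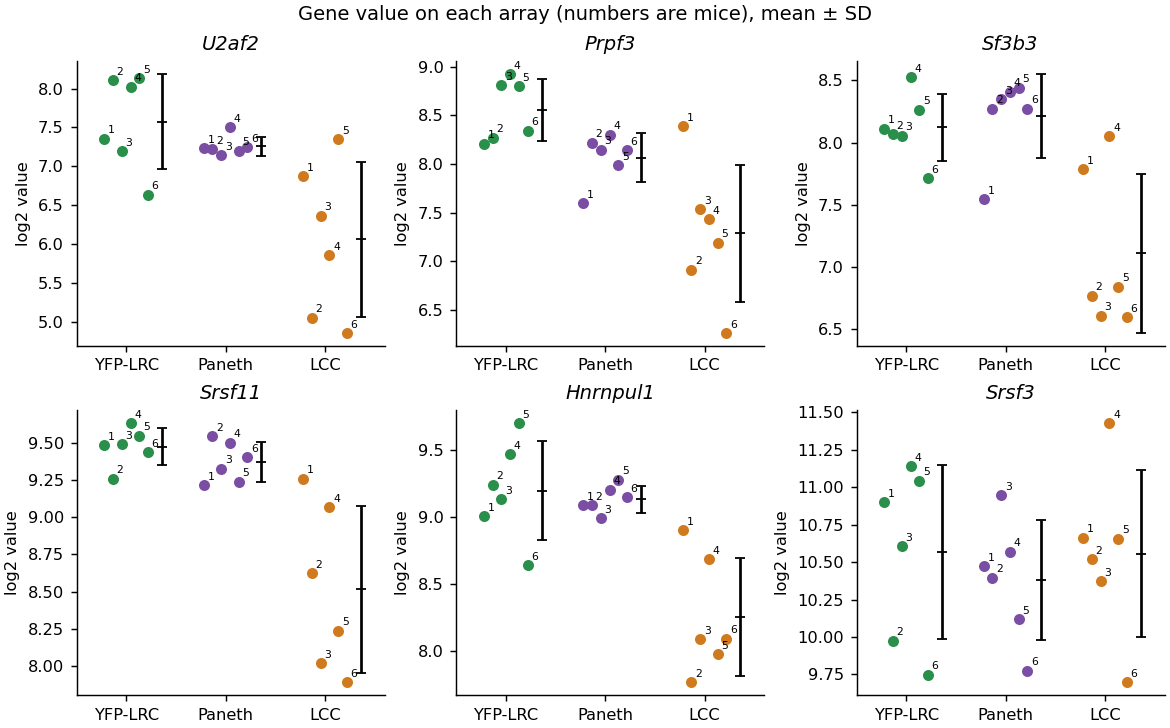
Log2 value of 6 splicing factor genes on each array, by population in the order YFP-LRC, Paneth and LCC, with mouse numbers beside the points and the mean ± SD (n = 6) as bars. In Prpf3, Sf3b3, Srsf11 and Hnrnpul1 most LCC arrays lie low while LCC array 1 lies near the other populations. In U2af2 LCC array 5 is the highest of the LCC arrays at 7.35, and in Srsf3 the populations overlap throughout.

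SR proteins bind exonic enhancers through an RNA recognition motif and recruit the spliceosome through arginine and serine repeats. Of the 17 SR and related genes, 3 were called higher in YFP-LRC than in LCC, and 3 in Paneth than in LCC (17.6% each), near the 15% and 22.9% of genes above the median of signal. Their median differences were 0.32 and 0.17. Srsf11, an arginine-rich relative of the SR proteins, had 9.26, 9.48 and 9.63 on YFP-LRC arrays, 9.21, 9.36 and 9.54 on Paneth arrays, and 7.89, 8.43 and 9.26 on LCC arrays. The YFP-LRC and Paneth arrays varied little (SD 0.13 and 0.14) and the LCC arrays more (SD 0.56). The difference was 0.96 ± 0.19 for YFP-LRC minus LCC (adjusted p = 0.00911) and 0.85 ± 0.19 for Paneth minus LCC (adjusted p = 0.00712). Scaf11, which binds SR proteins, had 8.24, 8.63 and 9.18 on YFP-LRC arrays, 8.46, 8.71 and 8.92 on Paneth arrays, and 7.01, 7.61 and 8.41 on LCC arrays. All Paneth arrays lay above all LCC arrays, and the difference was 1.01 ± 0.21 (adjusted p = 0.00449), with 0.97 ± 0.21 for YFP-LRC minus LCC (adjusted p = 0.0125). Srsf6, a classical SR protein, had 9.15, 9.47 and 9.59 on YFP-LRC arrays, 8.94, 9.42 and 9.62 on Paneth arrays, and 8.22, 8.60 and 9.33 on LCC arrays. It was higher by 0.72 ± 0.17 in YFP-LRC than in LCC (adjusted p = 0.0190) and by 0.64 ± 0.17 in Paneth than in LCC (adjusted p = 0.0174).

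Other SR genes did not pass the test. Srsf1, the founding SR protein, had 9.23, 9.79 and 10.31 on YFP-LRC arrays, 9.38, 9.65 and 9.95 on Paneth arrays, and 8.88, 9.72 and 10.22 on LCC arrays. Srsf3, the smallest SR protein, had 9.75, 10.75 and 11.14 on YFP-LRC arrays, 9.77, 10.43 and 10.95 on Paneth arrays, and 9.70, 10.59 and 11.43 on LCC arrays. In both genes the 3 ranges overlapped almost entirely. The difference of YFP-LRC minus LCC was 0.10 (95% interval -0.35 to 0.56) for Srsf1 and 0.01 (-0.56 to 0.59) for Srsf3. Changes within those bounds are not excluded. Srsf2 and Srsf5 were at 0.07 ± 0.36 and 0.04 ± 0.26. Srsf9, which had -0.32 ± 0.20 for YFP-LRC minus LCC and -0.46 ± 0.20 for Paneth minus LCC, was not called (adjusted p = 0.342 and 0.135). The other 9 members, among them Srsf4, Srsf7, Srek1 and Scaf4, ran from -0.22 to 0.65 for YFP-LRC minus LCC, with none called. Sfrs10 kept its older symbol, since 2 current genes list it as a synonym.

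Among 16 hnRNP genes, 3 were called higher in YFP-LRC than in LCC and 2 in Paneth than in LCC, or 18.8% and 12.5%, against 15% and 22.9% of genes above the median of signal. In each comparison 15 of 16 lay above 0 (93.8%, against 54.9% and 52.8% of all genes), and the comparisons share the LCC arrays. Genes above the median of signal had median differences of 0.23 and 0.27, and their share above 0 was not counted. Hnrnpul1, an hnRNP U relative, had 8.64, 9.19 and 9.70 on YFP-LRC arrays, 8.99, 9.12 and 9.28 on Paneth arrays, and 7.77, 8.09 and 8.90 on LCC arrays. All Paneth arrays lay above all LCC arrays, with a difference of 0.88 ± 0.19 (adjusted p = 0.00561), and YFP-LRC minus LCC was 0.94 ± 0.19 (adjusted p = 0.00927). Hnrnpr had 8.35, 8.78 and 9.59 on YFP-LRC arrays, 8.12, 8.99 and 9.22 on Paneth arrays, and 7.47, 8.01 and 8.34 on LCC arrays. Of the 66 genes, 1 (Hnrnpr) had all its YFP-LRC arrays above all its LCC arrays, against 1.94% of all genes, and 0 had them all below, against 0.373%. The difference was 0.96 ± 0.23 (adjusted p = 0.0187), and 0.91 ± 0.23 for Paneth minus LCC (adjusted p = 0.0124). For Paneth against LCC, 2 of the 66 lay wholly above, Scaf11 and Hnrnpul1, against 3.58% of all genes, and 0 wholly below, against 0.801%.

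Hnrnph1, which binds G-rich elements, was higher by 0.58 ± 0.17 in YFP-LRC than in LCC (adjusted p = 0.0446), with 10.91, 11.39 and 11.67 on YFP-LRC arrays, 10.85, 11.09 and 11.33 on Paneth arrays, and 10.23, 10.67 and 11.28 on LCC arrays. Paneth minus LCC was 0.34 ± 0.17 (adjusted p = 0.185). HNRNPA1, a repressor of many exons, was measured by 1 probe set of its own. Hnrnpa1 had 11.05, 11.46 and 11.69 on YFP-LRC arrays, 10.98, 11.15 and 11.39 on Paneth arrays, and 10.05, 11.08 and 11.36 on LCC arrays, with LCC arrays 5 and 6 low at 10.12 and 10.05. It lay above LCC in YFP-LRC in 6 of 6 mice, by 0.60 ± 0.21, without passing the test (adjusted p = 0.0877). Hnrnpa3 alone of this group lay below LCC, by -0.27 ± 0.14 for YFP-LRC and -0.29 ± 0.14 for Paneth, in 6 of 6 mice each and not called (adjusted p = 0.222 and 0.159). The other 11 ran from 0.16 (Hnrnph2) to 0.58 (Hnrnpul2) for YFP-LRC minus LCC.

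MBNL proteins switch exons between fetal and adult patterns in muscle and other tissues. Mbnl2 had 8.66, 9.14 and 9.39 on YFP-LRC arrays, 8.86, 9.24 and 9.53 on Paneth arrays, and 6.89, 8.55 and 9.24 on LCC arrays, where array 5 was lowest. It was higher by 0.90 ± 0.28 in Paneth than in LCC (adjusted p = 0.0354), and YFP-LRC minus LCC was 0.75 ± 0.28 (adjusted p = 0.101). Mbnl1 had 8.05, 8.87 and 9.24 on YFP-LRC arrays, 8.78, 8.93 and 9.08 on Paneth arrays, and 7.89, 8.33 and 8.88 on LCC arrays. Its difference of 0.55 ± 0.19 for Paneth minus LCC missed the threshold (adjusted p = 0.0608) and passed it when mice were blocked (adjusted p = 0.0473). Mbnl3 was at -0.03 ± 0.31 for YFP-LRC minus LCC.

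Between Paneth and LCC, 14 of the 66 genes were called higher and 1 lower in Paneth, 21.2% and 1.52%, with a median difference of 0.34, against 0.03 for all genes, 0.27 for those above the median of signal and 0.40 for those above the upper quartile. At like signal the background was higher. Of genes above the median, 22.9% were called higher and 1.85% lower, against 16 and 1 of the 66 splicing factor genes (24.2% and 1.52%). Of those above the upper quartile, 31.1% were called higher and 1.25% lower, against 14 and 0 of 57 splicing factor genes (24.6% and 0%). Sf3b4, the gene called lower, is not among these 57, so that 0 is not a lost call. A second quantile normalization changed the split to 6 higher and 4 lower, 60% higher, in place of 93.3%. This comparison and that of YFP-LRC with LCC use the same LCC arrays, so a value that was low on those arrays enters both.

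The LCC arrays differed among themselves. The median of the 66 genes' deviations from their own means was 0.07, -0.02, 0.18, 0.50, 0.40 and -0.13 on YFP-LRC arrays 1 to 6, and -0.16, 0.12, 0.17, 0.15, 0.25 and 0.19 on Paneth arrays 1 to 6. On LCC arrays 1 to 6 it was 0.08, -0.15, -0.21, 0.16, -0.46 and -0.76. LCC arrays 5 and 6 were thus low and LCC arrays 1 and 4 were level with the other populations. For all genes above the median of signal, the same median was -0.31 and -0.36 on LCC arrays 5 and 6. On LCC arrays 1 and 4 it was 0.03 and 0.02. An LCC array was the lowest of all 18 for 54 of the 66 genes (81.8%, against 50.7% of all genes), and LCC array 6 alone was lowest for 35 of them (53.0%, against 16.6% of all genes). These shares were not counted for genes of like signal. Within mice, the median difference of YFP-LRC minus LCC was -0.02, 0.14, 0.30, 0.30, 0.81 and 0.55 in mice 1 to 6, and that of Paneth minus LCC was -0.26, 0.27, 0.37, -0.02, 0.63 and 1.06.

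**Figure D3:**
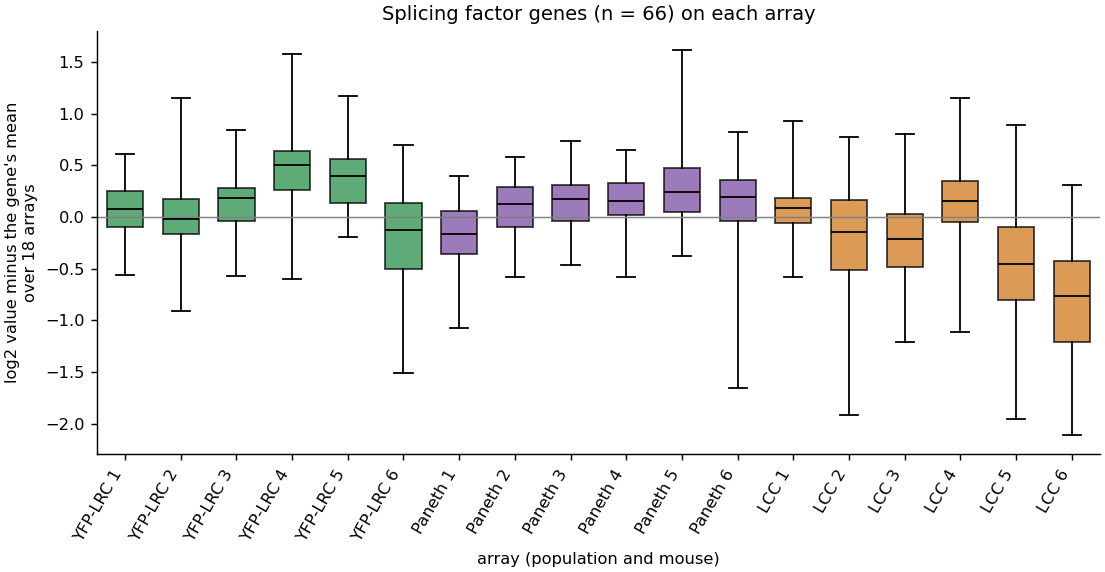
Deviation of the 66 splicing factor genes from their own mean over 18 arrays, on each array in log2 units (box, quartiles; line, median; whiskers, full range), in the order YFP-LRC, Paneth and LCC. The medians of LCC arrays 5 and 6 are -0.46 and -0.76, and those of LCC arrays 1 and 4 are 0.08 and 0.16.

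With LCC arrays 1 and 4 alone, 0 of the 66 genes were called in YFP-LRC against LCC or in Paneth against LCC, and the median differences were -0.01 and 0.01. The same fit called 0.862% of all genes higher in Paneth than in LCC, and 0.00611% in YFP-LRC than in LCC. These 2 arrays are the LCC arrays that correlate best with the other arrays, 12 of which are of the other populations, and 2 arrays give less precision than 6. A difference near 0 there is therefore partly fixed by the choice of arrays and does not show that the populations are alike. With LCC arrays 1 to 4, an alternative added after the data were seen, Prpf3 and U2af2 were called higher in YFP-LRC, and Hnrnpul1, Scaf11, Sf3b3 and U2af2 were called higher and Srsf9 lower in Paneth. These are 3.03% and 6.06% of the 66 called higher, against 1.19% and 5.25% of all genes in the same fits. U2af2 differed by 1.54 for YFP-LRC and 1.22 for Paneth against LCC arrays 1 to 4, and by 1.21 and 0.89 against LCC arrays 1 and 4, where neither was called. With the residual spread of each array as a covariate, 0 of the 66 genes were called in either comparison. Over all genes, 0.177% were called higher in YFP-LRC than in LCC in that fit, and 1.77% in Paneth than in LCC. Since residual spread differs between the populations, it and population cannot be fully told apart in that fit. With any 1 array left out, 8 of the 12 genes called in YFP-LRC kept their call, and with any whole mouse left out, 0 of 12 did. For Paneth these counts were 9 and 4 of 15, the 4 being Hnrnpul1, Scaf11, Sf3b3 and Srsf11. In YFP-LRC against LCC, Prpf4b, Prpf8 and Sf3a2 each lost their call without any 1 of 7 arrays, LCC 5 and LCC 6 among them, and Hnrnph1 without any 1 of 13. In Paneth against LCC, U2af2 lost its call without Paneth 4, LCC 2 or LCC 6, and Prpf31 without Paneth 5, LCC 2, LCC 5 or LCC 6. Mbnl2 lost it without any 1 of 6 arrays (Paneth 2, 3, 5 or 6, LCC 3 or LCC 5), Sf3a2 without any 1 of 7 and Prpf3 without any 1 of 13.

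**Figure D4:**
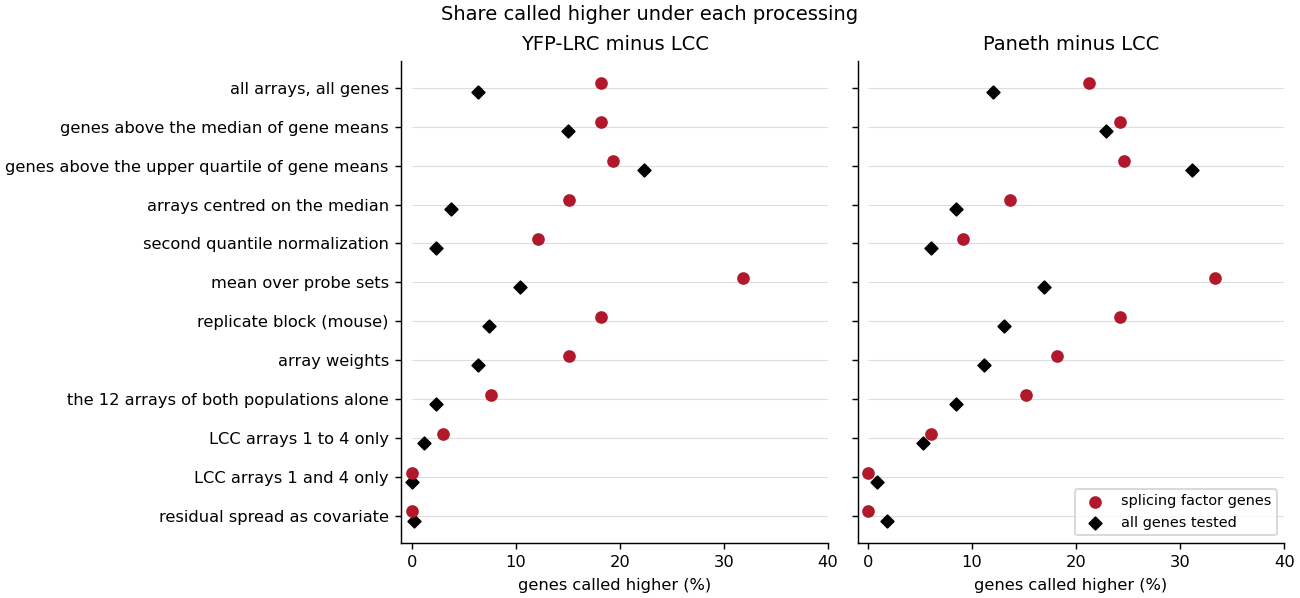
Percent of genes called higher in YFP-LRC than in LCC (left) and in Paneth than in LCC (right) under 12 ways of processing, for the 66 splicing factor genes (circles) and all genes tested (diamonds). Among genes above the upper quartile of signal the splicing factor genes lie below all genes in both panels, at 19.3% against 22.3% and 24.6% against 31.1%, and they are at 0% with LCC arrays 1 and 4 only.

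Between YFP-LRC and Paneth, 0 of the 66 genes had an unadjusted p under 0.05 (limma), against 903 of all 16358 genes. After adjustment 0 of the 66 were called, against 0.0550% of all genes called higher and 0.300% called lower. Among genes above the median of signal these shares were 0.0611% and 0.452%, and above the upper quartile 0.0978% and 0.660%. Of the 66 genes, 0 were wholly separated in either direction, against 0.183% of all genes above and 0.605% below. The median difference was 0.05, against 0.00 for all genes. Every 95% interval included 0. The intervals lay within 1 log2 unit of 0 for 64 of the 66 genes, with outermost bounds of -0.95 and 1.05 and a median margin of 0.47 on either side of the difference. The intervals do not show that the levels were equal. Within mice, the median difference was 0.26, -0.11, -0.05, 0.36, 0.09 and -0.27 in mice 1 to 6. The same 12 arrays separated markers of their own: 3 of 6 enteroendocrine markers were called higher in YFP-LRC than in Paneth, and 2 of 7 Paneth cell markers and 2 of 5 tuft cell markers were called lower.

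Of the 13 genes with a matching prefix only under their current name, 2 were called higher in YFP-LRC and in Paneth than in LCC. That is 15.4% in each comparison, against 6.33% and 12% of all genes. Celf1, which binds GU-rich RNA, had 7.51, 8.19 and 8.75 on YFP-LRC arrays, 7.46, 8.18 and 8.67 on Paneth arrays, and 6.45, 6.84 and 8.05 on LCC arrays. LCC arrays 1 and 4 were at 8.00 and 8.05, and the other 4 lay below every other array. The difference was 1.06 ± 0.28 for YFP-LRC minus LCC (adjusted p = 0.0310) and 1.00 ± 0.28 for Paneth minus LCC (adjusted p = 0.0232). Esrp1, an epithelial splicing regulator, had 8.64, 8.91 and 9.41 on YFP-LRC arrays, 8.38, 9.01 and 9.44 on Paneth arrays, and 7.31, 8.27 and 8.95 on LCC arrays. It was higher by 0.87 ± 0.25 in YFP-LRC than in LCC (adjusted p = 0.0426) and by 0.80 ± 0.25 in Paneth than in LCC (adjusted p = 0.0374), with overlapping ranges. With LCC arrays 1 and 4 alone, neither gene was called.

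Its relative Esrp2 had 7.22, 7.40 and 7.94 on YFP-LRC arrays, 6.99, 7.55 and 7.82 on Paneth arrays, and 7.03, 7.57 and 7.71 on LCC arrays, with 0.03 ± 0.17 for YFP-LRC minus LCC. Rbfox2, which binds UGCAUG next to regulated exons, had 7.36, 7.49 and 7.66 on YFP-LRC arrays, 7.11, 7.40 and 7.52 on Paneth arrays, and 6.91, 7.29 and 7.49 on LCC arrays, and was not called (0.29 ± 0.13, adjusted p = 0.165). Of 6 genes whose exons ESRP proteins are known to regulate, 2 were called higher in YFP-LRC than in LCC. That is 33.3%, against 6.33% of all genes and 15% of those above the median of signal. The called genes were Fgfr2 at 0.86 ± 0.18 (adjusted p = 0.0108) and Cd44 at 0.73 ± 0.20 (adjusted p = 0.0325). In Paneth against LCC, 2 of the 6 were called higher as well. These were Fgfr2 at 0.96 ± 0.18 (adjusted p = 0.00202) and Ctnnd1 at 0.76 ± 0.25 (adjusted p = 0.0442). These are gene levels and say nothing of exon choice.

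Other genes of splicing and RNA surveillance that the prefixes leave out gave like counts. Of 105 measured, 19 passed as higher in YFP-LRC and 0 as higher in LCC (18.1%, median 0.39), against 6.33% of all genes and 15% of those above the median of signal. Between Paneth and LCC 27 passed as higher in Paneth and 0 as higher in LCC (25.7%, median 0.46), against 12% of all genes and 22.9% of those above the median of signal. By role, 7 of 49 core spliceosome genes, 6 of 29 splicing regulators, 1 of 8 SR protein kinases, 2 of 6 exon junction complex genes, 2 of 11 snRNP assembly genes and 1 of 2 nonsense-mediated decay genes rose in YFP-LRC against LCC. Among them were Snrnp35 of the minor spliceosome (1.00 ± 0.19), the U5 helicase gene Ddx23 (0.98 ± 0.25), Tia1 (1.02 ± 0.21), the kinase Dyrk1a (0.90 ± 0.19), Rnps1 (1.03 ± 0.24) and Smn1 (0.99 ± 0.21), whose protein loads Sm proteins onto snRNAs. Between YFP-LRC and Paneth, 1 of the 105 was called. Snrnp25, a minor spliceosome protein, averaged 8.61 ± 0.25 in YFP-LRC, 9.70 ± 0.40 in Paneth and 8.04 ± 0.51 in LCC (SD, n = 6), a difference of -1.09 ± 0.22 for YFP-LRC minus Paneth (log2, adjusted p = 0.0275).

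Exon-level values were compared with diffSplice, which asks whether a probe set differs from the other probe sets of its gene. Of 62 splicing factor genes with at least 3 probe sets above the median signal, 13 (21.0%) had unequal probe sets between YFP-LRC and LCC, against 17.8% of 10592 genes, and 16 (25.8%) between Paneth and LCC, against 25.4% of 10484 genes. Between YFP-LRC and Paneth 0 of 62 did, against 0.167% of 10747 genes, and 0 with an F test in place of the Simes method. These shares are near the background. With the F test they were 29.0% against 21.3% of all genes for YFP-LRC and LCC, and 40.3% against 29.6% for Paneth and LCC. With probe sets above the upper quartile they were 24.5% against 15.4%, and 20.8% against 20.9%. With LCC arrays 1 and 4 alone, 1 gene (Sf3a3) was called for YFP-LRC and 2 (Hnrnpa3 and Prpf6) for Paneth.

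Between Paneth and LCC, the 3 largest departures among the called probe sets of the 66 genes were in Prpf6, Hnrnpa3 and Clasrp. In Clasrp, which encodes an SR-like protein that binds a CLK kinase, probe set 5153970 had 9.58, 10.67 and 11.28 on YFP-LRC arrays, 9.37, 9.87 and 11.68 on Paneth arrays, and 6.09, 8.48 and 10.80 on LCC arrays. Its LCC arrays 3, 5 and 6 lay low and LCC arrays 1, 2 and 4 lay within the range of the others, for an SD of 2.15. It departed from the other probe sets by 2.32 for YFP-LRC minus LCC (adjusted p = 3.1e-06 for the gene) and by 2.11 for Paneth minus LCC, while the gene values differed by -0.22 ± 0.20 and -0.32 ± 0.20 and were not called. After a second quantile normalization the gene value was called lower in Paneth than in LCC, at -0.67 (adjusted p = 0.0390). In Prpf6, a tri-snRNP bridging protein, probe set 4955812 had 6.55, 7.83 and 8.40 on YFP-LRC arrays, 5.53, 7.42 and 8.42 on Paneth arrays, and 8.33, 9.63 and 10.65 on LCC arrays. Here LCC was the higher population, by a departure of -2.17 for YFP-LRC minus LCC and -2.88 for Paneth minus LCC, with only LCC array 1 at the top of the other populations' range. In Hnrnpa3, probe set 4917695 had 9.05, 10.28 and 10.85 on YFP-LRC arrays, 10.03, 11.12 and 11.77 on Paneth arrays, and 6.22, 9.23 and 10.79 on LCC arrays, with departures of 1.28 and 2.15. Other probe sets of Prpf6, Clasrp and Hnrnpa3 went the opposite way from the one shown. Prpf6 probe sets 5583180 and 5171473 had medians of 9.12 and 9.15 on YFP-LRC arrays and 7.45 and 8.14 on LCC arrays. Prpf6 probe set 4692895 went with the one shown, at 7.63 and 8.27. Clasrp probe set 4718594 had a median of 7.68 on YFP-LRC arrays and 8.63 on LCC arrays. Hnrnpa3 probe set 5335237 had medians of 7.53 on YFP-LRC arrays, 7.26 on Paneth arrays and 7.74 on LCC arrays. No position of these probe sets was used here, so the exons they lie in are not named.

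**Figure D5:**
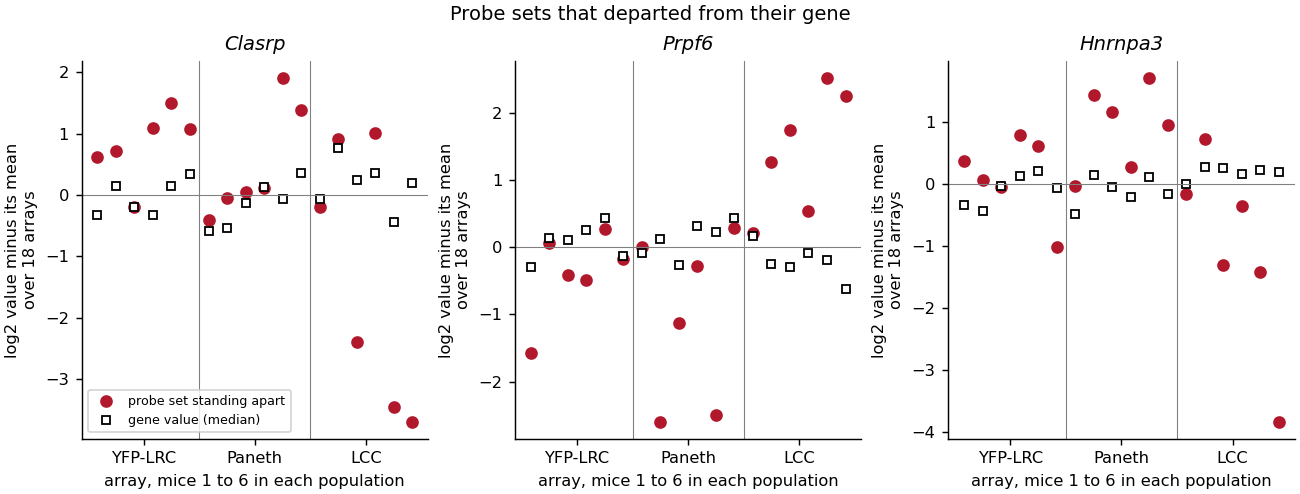
Log2 value minus its mean over 18 arrays for 1 probe set (filled) and for the gene value (open squares) of Clasrp, Prpf6 and Hnrnpa3, on YFP-LRC, Paneth and LCC arrays of mice 1 to 6 from left to right. The Clasrp and Hnrnpa3 probe sets are lowest on LCC array 6, and the Prpf6 probe set is highest on LCC array 5.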

How the data were processed

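The log2 values were deposited by the authors as 229581 core probe sets on 18 arrays. Per the file headers they were made with Affymetrix Power Tools 1.12.0 by RMA, with background correction, quantile normalization over all 18 arrays and median polish, on mm9. The 2 deposited tables were identical. Batch, scan and RNA quality are not given in the sources used here.

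Probe sets with 1 gene symbol (209279; 4446 had several and 15856 none) were joined by gene, and a gene's value was their median, giving 16358 genes. Symbols were updated through RefSeq (GRCm38.p6): of 16380, 14190 were current, 2145 matched a synonym and 45 were kept. Populations were compared with limma 3.58.1 in R 4.3.3, one fit over 18 arrays, with Benjamini-Hochberg adjustment over all genes and calls at an adjusted p under 0.05. No filter on low values was applied, so all 66 splicing factor genes were tested. Probe sets above 6.68 were tested with diffSplice. Tables and figures used Python 3.11.15, pandas 2.3.3, numpy 2.4.6 and matplotlib 3.10.9, and the scripts were tested on simulated data.

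The series' design text says that each mouse gave all 3 populations, so equal replicate numbers were taken to pair the arrays. The litter label of 1 of the arrays numbered 6 differs from the others of that number in the order of its digits. Correlations of same-mouse deviations were -0.11 to 0.41. The fit has no mouse block, and the block is an alternative. The members and gene lists were chosen with earlier results of these data known. Every member may be named. Values per population are given for up to 10 members with the largest called changes, for the lowest adjusted p of each role and for 13 genes listed by name. Of other lists, the 3 lowest adjusted p were eligible. Alternatives were other normalization, summaries, filters, designs and left-out arrays.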

Additional observations from a re-analysis of the deposited data

Results flagged for a closer look

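In 7 of 84 groups of 6 arrays tested, 1 array stood far from the other 5 by the size of the gap to its nearest neighbour relative to the range. Chance flags about 1 in 20 groups. In YFP-LRC, Prpf31 was at 7.69 on array 4, with the others at 7.14 to 7.27. In Paneth, array 1 was low for Sf3b3 at 7.54 (others 8.27 to 8.44), for Esrp2 at 6.99 (7.52 to 7.82) and for Rbfox2 at 7.11 (7.37 to 7.52). Paneth array 5 was high for Prpf31 at 8.21 (others 7.20 to 7.52) and for Snrpa at 9.55 (8.71 to 8.97). Paneth array 4 was high for U2af2 at 7.50 (others 7.14 to 7.25). No LCC array was flagged in these groups. The rule can miss an array where several arrays lie low together or a group is widely spread. The lack of a flag therefore does not show that the LCC arrays were alike.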

How the results depend on the processing

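Between YFP-LRC and LCC, the 12 genes called higher became 21 with the mean over probe sets, 5 in a fit of the 12 arrays alone, 2 with LCC arrays 1 to 4 (added after the data were seen), 0 with residual spread as a covariate and 0 with LCC arrays 1 and 4. The 0 called lower became 1 with a second quantile normalization (Snrpc) and 1 with the mean (Sf3b4). Between Paneth and LCC, the 14 called higher became 22 with the mean, 9 with centred arrays, 6 with the second quantile normalization, 4 with LCC arrays 1 to 4, 0 with the covariate and 0 with LCC arrays 1 and 4. The 1 called lower (Sf3b4) became 4 with the second quantile normalization. It became 0 in the fit of both populations alone, with the covariate and with LCC arrays 1 and 4. The filter for genes above the upper quartile left Sf3b4 out, so the 0 there is not a lost call. Unequal probe sets went to 1 gene for YFP-LRC and 2 for Paneth with LCC arrays 1 and 4, and with an F test to 18 for YFP-LRC (29.0% against 21.3% of all genes) and 25 for Paneth (40.3% against 29.6%). With an array or a mouse left out, genes called higher in YFP-LRC than in LCC numbered 1 to 15, and in Paneth than in LCC 5 to 16, with 0 to 0 and 0 to 1 called lower. Leaving out whole mice 2, 3, 5 and 6 gave 3, 4, 1 and 7 for YFP-LRC, and 7, 8, 5 and 6 for Paneth. The median differences ran from 0.28 to 0.48 and from 0.20 to 0.47. YFP-LRC against Paneth gave 0 to 0 calls, with medians of -0.02 to 0.12. With the mouse as a replicate block, 12 genes were called higher in YFP-LRC than in LCC, and 16 higher and 1 lower in Paneth than in LCC, adding Mbnl1 and Sf3b1 and ending no call. Centring moved the median of all genes between Paneth and LCC to -0.08, from 0.03. Over single genes and alternatives, 777 of 1112 values kept direction and call, 335 lost the call and 0 reversed. The causes were not tested. The number of arrays and the spread among LCC arrays limit what can be detected.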

Other observations

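Probe sets that carry several symbols were left out of the gene values above. For Hnrnpa1, which kept 1 probe set of its own, 17 such probe sets averaged 11.20 ± 0.38 in YFP-LRC, 11.10 ± 0.22 in Paneth and 10.81 ± 0.21 in LCC (SD, n = 6 arrays). For Snrpn, the neuronal SmB paralogue, all probe sets were shared, and 11 of them averaged 7.27 ± 0.72 in YFP-LRC, 7.43 ± 0.58 in Paneth and 6.60 ± 1.02 in LCC. For Snrpg, a Sm core protein, 6 shared probe sets averaged 11.36 ± 0.40 in YFP-LRC, 11.60 ± 0.28 in Paneth and 11.25 ± 0.74 in LCC. For U2af1l4, a relative of U2af1, 12 averaged 7.42 ± 0.36 in YFP-LRC, 7.60 ± 0.42 in Paneth and 7.22 ± 0.31 in LCC. These values cannot be given to 1 gene, and no test was made of them.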
